A study of Mus musculus with 4 samples.

Results

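The genes described here build and regulate the contacts between epithelial cells. They are the classical cadherins and Epcam, the catenins, the desmosome, the tight junction apart from its claudins, the apical polarity complexes, and a small group for epithelial splicing, trafficking and apical membrane. The set was a list of 38 gene symbols, measured by probe sets annotated to a single gene, with the brightest probe set of a gene where it had several. For 36 of the 38, of 19938 genes in all, such a probe set was present, 1 for each gene. Dsg1a was found only on a probe set annotated to several genes and Dsc1 on none, so neither was analysed here. Pkp2 lay below the filter on dim genes, and 35 members were tested among 14953 genes.

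Skin of mouse embryos (E16.5) was profiled on Affymetrix arrays that read whole transcripts, and each array held total RNA of 2 mice. The 2 Ovol2 BT arrays came from embryos with the transgenes TRE-Ovol2-Flag and K5-tTA, labelled strain FVB/N. The 2 control arrays came from embryos with TRE-Ovol2-Flag alone or from wild type embryos, labelled strain CB6F1. In this system the keratin 5 promoter places the transactivator tTA in basal keratinocytes and hair follicle epithelium, and tTA switches on the Flag-tagged Ovol2 there. The comparison addresses which skin transcripts differ when this zinc finger factor is overexpressed in the epidermis. A group with K5-tTA alone was not analysed here, so the effects of tTA and of Ovol2 cannot be told apart. The labels also speak of littermates, which different strain names for the groups do not match, so a strain difference between the groups is uncertain, and where real it cannot be told apart from genotype. Whole skin mixes epidermis with dermis, and fewer cells of a type cannot be told apart from less RNA per cell.

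Classical cadherins hold epithelial cells together at adherens junctions and pass force to actin through the catenins. Desmosomal cadherins, the desmogleins and desmocollins, do the same for keratin filaments through plakoglobin, plakophilins and desmoplakin, and they carry most of the mechanical strength of the epidermis. Tight junctions seal the space between cells of the granular layer, and the Crumbs, Par and Lgl proteins set the border between the apical and lateral membrane. In other settings Ovol2 is known to hold cells in an epithelial state by repressing genes of mesenchymal transition such as Zeb1, and Zeb and Snail factors in turn repress genes of cell adhesion and polarity.

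All values are levels on the log2(intensity + 16) scale unless stated, and differences are Ovol2 BT minus control on that scale, with n = 2 arrays per group. Ovol2 itself read 12.93 and 12.96 on Ovol2 BT replicates 1 and 2, against 7.59 and 8.29 on control replicates 1 and 2. It rose by 5.01 (SE 0.27, limma adjusted p = 0.0253), although its adjusted p was 0.0709 after cyclic loess and 0.0590 without an intensity trend. Its relative Ovol1 differed by 0.06 (SE 0.18, limma adjusted p = 0.959). Of the arrays, replicate 2 of Ovol2 BT was the most unlike the rest, with 893 genes over 2-fold below the mean of the other arrays, where each of the others had 30 to 43. The labels call all embryos female. The Y-linked Eif2s3y read 10.40 and 4.72 on the Ovol2 BT arrays, against 10.13 and 6.17 on the control arrays, so replicate 1 of each genotype carried Y-linked signal against its label. Among 10 markers of keratinocytes the mean level was 12.59 and 12.58 on the Ovol2 BT arrays, against 12.97 and 12.96 on the control arrays. Most of this lay in 3 keratins of the basal layer, chosen after their values were seen. Their differences were -1.41 for Krt15, -0.87 for Krt5 and -0.66 for Krt14. Krt1, Krt10, Lor, Sfn and Col17a1 lay within 0.1 of 0. Krt1 and Krt10 still lay wholly lower, as did 5 of the 10 markers in all (50%, against 14.1% of all genes). Trp63 differed by -0.21 and Ivl by -0.46, each with overlapping groups. Of the 10 markers 9 had a negative difference, with a median of -0.15, none passed in limma, and none lay below the filter on dim genes. For 9 fibroblast markers the mean level was 13.02 and 12.89 on the Ovol2 BT arrays, against 13.01 and 12.97 on the control arrays. The mean of 5 erythroid markers, 2 of them under the filter (Epb42 and Hemgn), was 8.41 and 9.96 on the Ovol2 BT arrays, against 8.32 and 8.83 on the control arrays, highest on Ovol2 BT replicate 2. Myeloid markers, with Aif1 under the filter, averaged 9.35 and 9.25 on the Ovol2 BT arrays, against 9.14 and 9.10 on the control arrays. Of the 7 tested, 4 lay wholly higher in Ovol2 BT (57.1%, against 20.1% of all genes) and 3 had a negative difference. Melanocyte markers averaged 9.50 and 9.42 on the Ovol2 BT arrays, against 9.65 and 9.75 on the control arrays. Skeletal muscle markers averaged 11.16 and 12.19 on the Ovol2 BT arrays, against 12.02 and 11.17 on the control arrays, which did not separate the genotypes.

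RefSeq promoter windows (GRCm38.p6, 250 bases before to 50 after a transcript start) were matched for 18 of the 38 members, 26 windows in all. They are shown as a description, and Crb3 was picked out after its value was seen. Crb3, the member with the largest difference in either direction, was the only matched member whose windows held the letters CCGTTA. It did not pass in limma, and Dsc3, the member with the next largest difference, had no matched window. Whether Ovol2 acts on Crb3 was not tested. CCGTTA is the core that Ovo family proteins recognise. In Crb3 these letters stood directly before the letters CAGGTG, an E-box of the kind that Zeb and Snail factors bind. Capitals below mark CCGTTA and CAGGTG on either strand, so that CACCTG is CAGGTG on the opposite strand. The windows are chr17:57061951-57062250 on the plus strand for Crb3, chr17:87635729-87636028 on the plus strand for Epcam, chr3:88548230-88548529 on the minus strand for Rab25 and chr9:120933150-120933449 on the plus strand for Ctnnb1.
Crb3: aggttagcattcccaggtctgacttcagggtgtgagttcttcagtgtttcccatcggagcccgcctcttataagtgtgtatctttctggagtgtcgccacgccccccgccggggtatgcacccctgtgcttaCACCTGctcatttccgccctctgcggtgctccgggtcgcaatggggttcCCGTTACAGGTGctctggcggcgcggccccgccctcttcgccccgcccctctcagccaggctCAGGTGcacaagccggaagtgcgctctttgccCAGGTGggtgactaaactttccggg
Epcam: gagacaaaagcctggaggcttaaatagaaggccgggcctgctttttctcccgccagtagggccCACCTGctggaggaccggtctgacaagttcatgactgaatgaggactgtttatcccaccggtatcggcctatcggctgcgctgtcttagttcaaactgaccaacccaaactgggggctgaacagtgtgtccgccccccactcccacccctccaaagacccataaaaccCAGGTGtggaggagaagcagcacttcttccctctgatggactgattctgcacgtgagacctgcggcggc
Rab25: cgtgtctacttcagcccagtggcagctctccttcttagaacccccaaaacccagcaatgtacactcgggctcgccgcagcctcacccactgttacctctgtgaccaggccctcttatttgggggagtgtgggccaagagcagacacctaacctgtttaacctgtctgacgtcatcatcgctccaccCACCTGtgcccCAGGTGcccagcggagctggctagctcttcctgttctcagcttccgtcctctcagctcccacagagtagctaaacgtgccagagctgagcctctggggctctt
Ctnnb1: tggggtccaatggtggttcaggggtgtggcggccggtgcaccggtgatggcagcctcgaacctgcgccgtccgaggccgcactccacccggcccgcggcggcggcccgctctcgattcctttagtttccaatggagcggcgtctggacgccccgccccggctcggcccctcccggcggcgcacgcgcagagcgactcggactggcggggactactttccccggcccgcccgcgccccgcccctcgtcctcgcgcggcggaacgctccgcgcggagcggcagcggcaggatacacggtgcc

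Counted with the first transcribed base as 1 and no base 0, CCGTTA in the Crb3 window shown began at -69 and the E-box beside it at -63. Counted from the other annotated Crb3 start, the same letters began at -99 and -93. Crb3 held 4 E-boxes in each window, Epcam and Rab25 held 2 each, and Ctnnb1 held none. Over all members with a window, 16 of 26 windows (61.5%) had an E-box, against 20.2% of all 32851 promoter windows, and CCGTTA was in 2 of 26 (7.69%), both overlapping windows of Crb3, against 2.76% of all windows. The 11 members with an E-box had differences from -0.11 to 0.82 with a median of 0.04, and 6 of them were positive. The 7 members without one, Cgn, Ctnnb1, Ctnnd1, Jup, Prkci, Prom2 and Tjp1, had differences from -0.41 to 0.14 with a median of -0.15, and 1 was positive. These letters are a description of the windows, several windows belong to the same gene, and the arrays measured no binding. The same split over all genes was not made, and no member was called. Whether an E-box goes with a difference was therefore not tested. The members not matched were Cdh1, Cdh2, Cdh3, Cdh11, Ctnna1, Dsc1, Dsc2, Dsc3, Dsg1a, Dsg1b, Dsg2, Dsg3, Esrp1, Esrp2, Llgl2, Marveld3, Perp, Pkp1, Pkp2 and Pkp3.

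No junction or polarity gene passed the threshold of an adjusted p under 0.05 over all 14953 genes. In limma 0 of 35 members were called, where 4 of all genes (0.0268%) were, 3 higher and 1 lower. With quantile normalisation the genes called were 3 higher and 2 lower, and with median centring 6 higher and 1 lower, again with 0 members. At an unadjusted p under 0.05 there were 7 members (20.0%), against 4.23% of all genes tested. They were 2 higher, Crb3 and Cdsn (5.71%, against 2.49% of all genes higher), and 5 lower, Dsc3, Ctnnb1, Perp, Marveld3 and Pkp1 (14.3%, against 1.74% of all genes lower). With median centring there were 3 higher and 1 lower (11.4%, against 4.43% of all genes), and with array weights or no intensity trend 3 in all (8.57%, against 4.25% of all genes with the weights and 4.02% without the trend). The count also turned on single arrays. It changed least without Ovol2 BT replicate 2, although the share of all genes rose there and lower members no longer outnumbered higher ones. It was 1 (2.86%, against 2.13% of all genes) without control replicate 1, 2 (5.71%, against 1.53%) without control replicate 2 and 10 (28.6%, against 31.9%) without Ovol2 BT replicate 1. The members' median difference was -0.06, where that of all genes tested was 0.03, and 31 of the 35 (88.6%) lay within 0.5 of 0, as did 90.6% of all genes. Without Ovol2 BT replicate 1 the fit called 5 members (Crb3 higher, and Dsc3, Dsg1b, Tjp1 and Cdh11 lower), but it then called 16.4% of all genes.

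**Figure D1:**
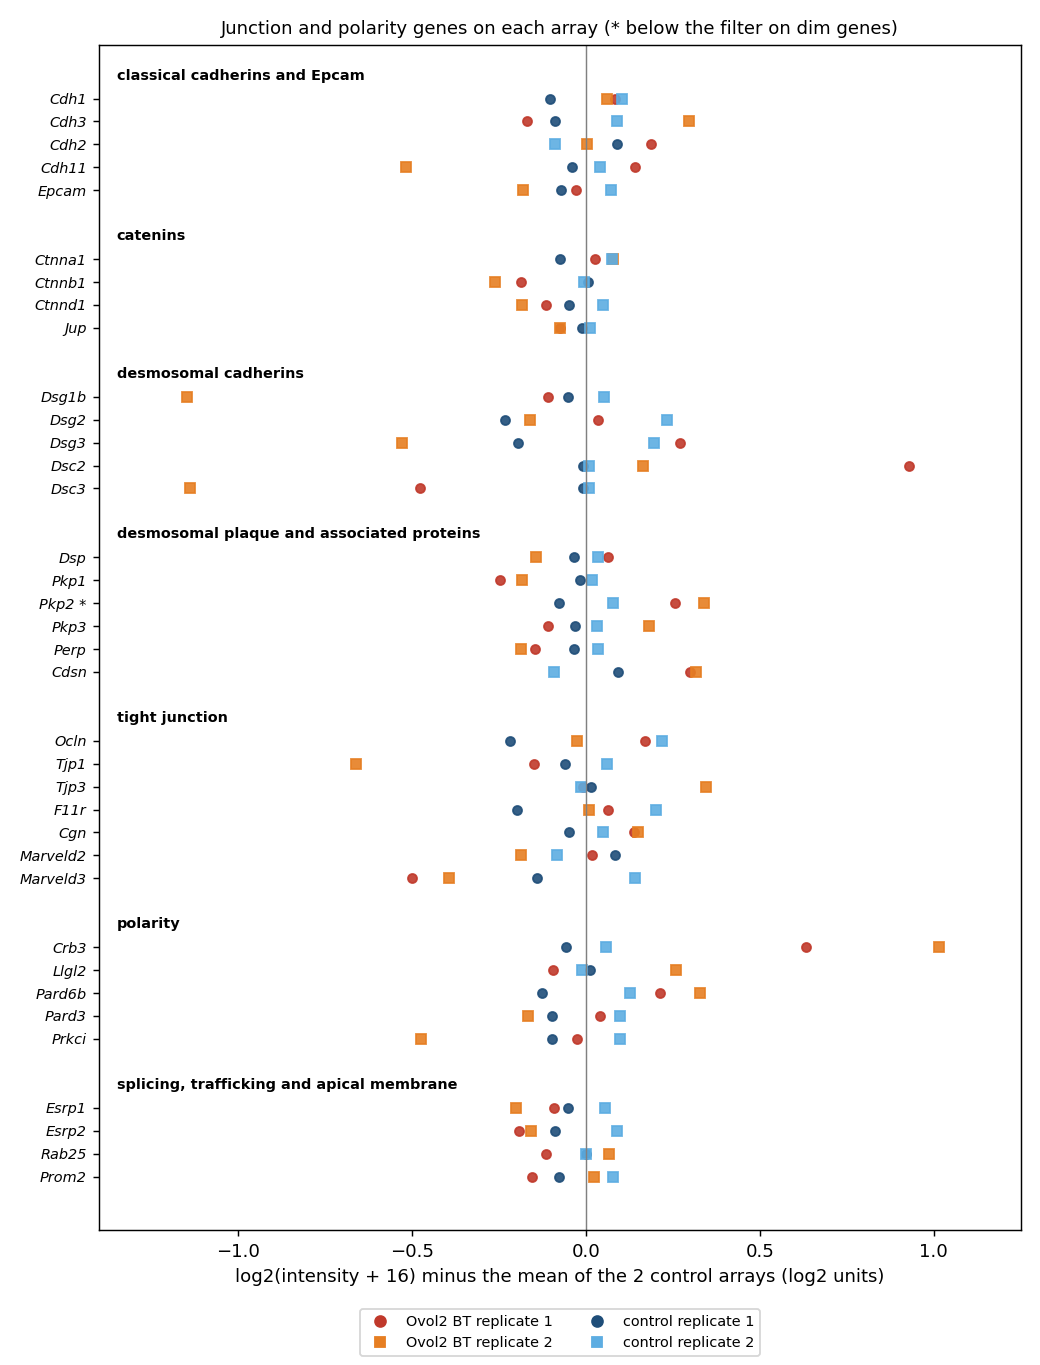
Level of each member on each array, as log2(intensity + 16) minus the mean of the 2 control arrays (horizontal axis, log2 units), with members down the page by role. Circles are replicate 1 and squares replicate 2, red and orange for Ovol2 BT and dark and light blue for control; Crb3 lies to the right on both Ovol2 BT arrays, Dsc3 to the left on both, and Dsg1b far to the left on Ovol2 BT replicate 2 only.

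Across the plot of members by array the Ovol2 BT and control arrays did not overlap for 16 of 35 members (45.7%), where this held for 34.2% of all genes tested. They were 5 higher (14.3%, against 20.1% of all genes higher) and 11 lower (31.4%, against 14.1% of all genes lower). With median centring 7 members (20.0%, against 26.3% of all genes) lay wholly higher and 9 (25.7%, against 9.56%) wholly lower. With quantile normalisation 7 (20.0%, against 22.4%) lay wholly higher and 11 (31.4%, against 12.6%) wholly lower. On Ovol2 BT replicate 2, 5 members (14.3%) lay over 0.5 below the mean of the other arrays, namely Cdh11, Dsg1b, Dsg3, Dsc3 and Tjp1, where 14.6% of all genes did.

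Among the polarity genes Crb3 lay higher and the others differed less. Crb3, a small transmembrane Crumbs protein that recruits the Pals1 and Patj complex to the apical membrane, read 8.78 and 9.16 on the Ovol2 BT arrays, against 8.09 and 8.20 on the control arrays. Every Ovol2 BT value lay above every control value, with a gap of 0.58 between the groups. The difference was 0.82 (SE 0.20, 1.77-fold), with an unadjusted p of 0.00815 and an adjusted p of 0.765 in limma, so Crb3 did not pass. It was 0.63 without Ovol2 BT replicate 2 and 1.01 without Ovol2 BT replicate 1. A filter at the 50th percentile of mean level left Crb3 out as too dim. Pard6b, a scaffold of the Par complex, read 9.41 and 9.52 on the Ovol2 BT arrays and 9.07 and 9.32 on the control arrays, also without overlap (0.27, SE 0.20, limma adjusted p = 0.906). Prkci, the atypical protein kinase C of the same complex, read 11.46 and 11.02 in Ovol2 BT and 11.39 and 11.59 in control, and only replicate 2 of Ovol2 BT lay below both controls. Pard3, the Par complex scaffold at the junction, differed by -0.06 and Llgl2, a basolateral antagonist of that kinase, by 0.08, each with overlapping groups.

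**Figure D2:**
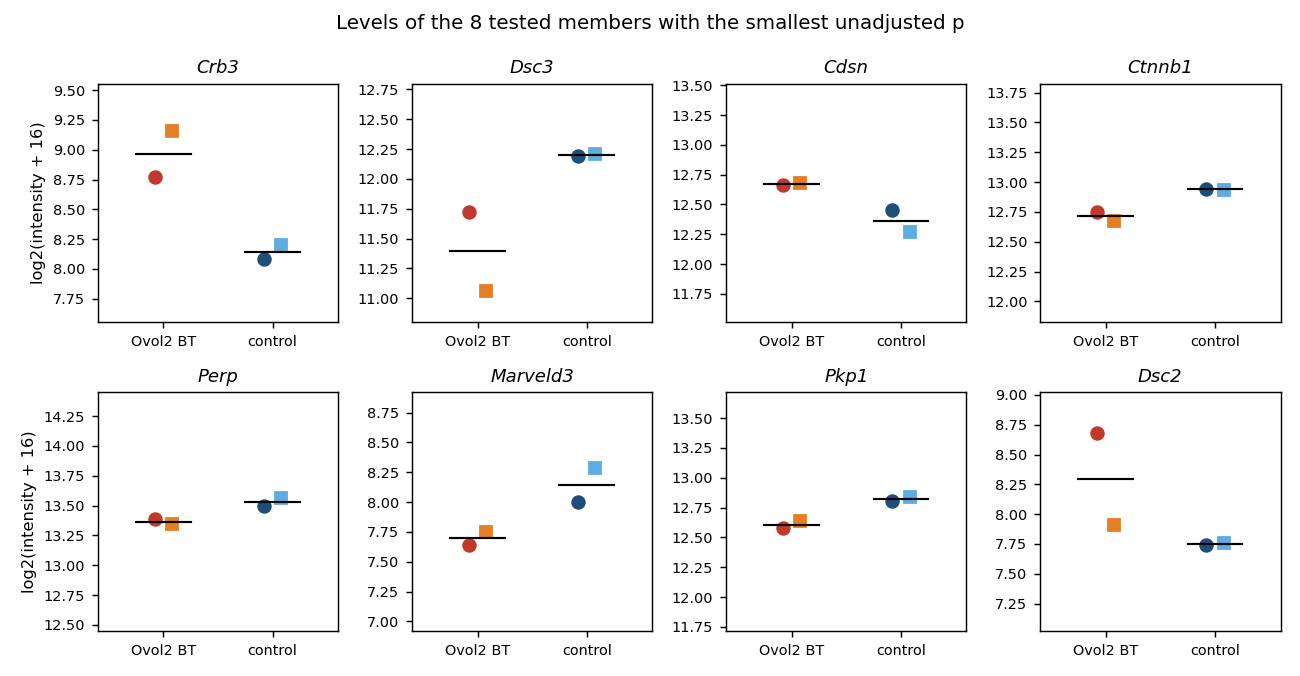
Levels of the 8 tested members with the smallest unadjusted p, chosen after their values were seen, as log2(intensity + 16) on the vertical axis, with Ovol2 BT left of control in each panel. Circles are replicate 1, squares replicate 2 and bars the group mean; every panel spans 2 log2 units and panels have different origins, so levels compare within a panel only. Crb3, Cdsn and Dsc2 sit higher in Ovol2 BT and the other 5 lower, and the Ovol2 BT arrays of Dsc3 and Dsc2 lie far apart.

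The desmosomal cadherins had the largest median absolute difference of the 7 roles (0.55, where all members had 0.14), and the Ovol2 BT arrays also differed most among themselves there. Dsc3, the main desmocollin of the basal and lower spinous layers, read 11.73 and 11.06 on the Ovol2 BT arrays, against 12.20 and 12.21 on the control arrays. Both Ovol2 BT values lay below both control values, by at least 0.47. The difference of -0.81 (SE 0.23, 0.571 of the control level) had an unadjusted p of 0.0152 and an adjusted p of 0.886 in limma. It was -0.48 without Ovol2 BT replicate 2 and -1.14 without Ovol2 BT replicate 1, where the adjusted p was 0.000361 in limma (0.000361 to 0.999935 over all alternatives). The basal keratins Krt5, Krt14 and Krt15 also lay lower on both Ovol2 BT arrays. So did Krt1 and Krt10, with differences of -0.08 each, while Lor, Sfn and Col17a1 lay within 0.1 of 0 with overlap. Of the same keratinocyte markers, Trp63 differed by -0.21 and Ivl by -0.46, each with overlapping groups. The part of these marker differences in that of Dsc3 was not tested. Dsc2, a desmocollin of many epithelia, read 8.68 and 7.91 in Ovol2 BT, against 7.74 and 7.76 in control. Both lay above the controls, but replicate 1 by far the more, so that the difference of 0.55 (SE 0.27, limma adjusted p = 0.906) was 0.93 without Ovol2 BT replicate 2 and 0.17 without Ovol2 BT replicate 1.

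Dsg1b, a desmoglein of the differentiated layers, read 10.77 and 9.73 on the Ovol2 BT arrays and 10.83 and 10.93 on the control arrays. Replicate 2 alone was far below, and the difference of -0.63 (SE 0.36, limma adjusted p = 0.906) was -0.11 without it. Dsg1a and Dsg1b are close copies, so what the Dsg1b probe set reads is uncertain. Dsg3, a desmoglein of the lower layers, read 10.14 and 9.34 in Ovol2 BT, against 9.68 and 10.07 in control, and its Ovol2 BT values lay on either side of the controls (-0.13, SE 0.32). Dsg2, the desmoglein of simple epithelia, read 8.39 and 8.20 in Ovol2 BT and 8.13 and 8.59 in control, with overlap (-0.06, SE 0.22). In all, 1 of the 5 desmosomal cadherins tested had a positive and 4 a negative difference, and 0 were called.

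The plaque and associated desmosomal proteins showed smaller differences with tighter replicates. Cdsn, corneodesmosin, an extracellular adhesive protein of the cornified layer, read 12.66 and 12.68 on the Ovol2 BT arrays, against 12.45 and 12.27 on the control arrays. The groups did not overlap, and the difference was 0.31 (SE 0.10, unadjusted p = 0.0277, limma adjusted p = 0.906). Pkp1, the plakophilin of suprabasal desmosomes, read 12.58 and 12.64 in Ovol2 BT, against 12.81 and 12.84 in control (-0.22, SE 0.08). Perp, a membrane protein of desmosomes and a p63 target, read 13.39 and 13.35 in Ovol2 BT, against 13.50 and 13.57 in control (-0.17, SE 0.06). Pkp1 and Perp thus lay below the controls on both Ovol2 BT arrays, Pkp1 at an unadjusted p of 0.0430 and Perp at 0.0373 in limma, with an adjusted p of 0.906 each. Dsp, desmoplakin, which ties the plaque to keratin filaments, read 13.39 and 13.18 in Ovol2 BT and 13.29 and 13.36 in control, with overlap (-0.04, SE 0.09). Pkp3, a plakophilin of all living layers, differed by 0.04 (SE 0.18), also with overlap. Pkp2, the plakophilin of simple epithelia and heart, was too dim to be tested and read 7.24 and 7.32 in Ovol2 BT and 6.90 and 7.06 in control.

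Of the 4 catenins 3 had lower levels in Ovol2 BT skin and 1 a higher level, and 0 were called. Ctnnb1, beta-catenin, which links cadherins to alpha-catenin and also carries the Wnt signal, read 12.75 and 12.68 on the Ovol2 BT arrays, against 12.94 and 12.93 on the control arrays. The control arrays lay 0.01 apart and the Ovol2 BT arrays 0.08 apart, both below the controls. The difference was -0.22 (SE 0.08, 0.856 of the control level), with an unadjusted p of 0.0333 and an adjusted p of 0.906 in limma. Ctnnd1, p120-catenin, which holds cadherins at the membrane, read 11.74 and 11.67 in Ovol2 BT, against 11.80 and 11.90 in control (-0.15, SE 0.12). Jup, plakoglobin, which serves desmosomes and adherens junctions, read 13.21 and 13.21 in Ovol2 BT, against 13.27 and 13.30 in control (-0.07, SE 0.06). For these 3 the groups did not overlap, but Jup overlapped with median centring. Ctnna1, alpha-catenin, the link to actin, read 11.23 and 11.28 in Ovol2 BT and 11.13 and 11.28 in control, with overlap (0.05, SE 0.15).

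The classical cadherins and Epcam overlapped between genotypes in all 5 cases, except that Cdh2 lay wholly higher in Ovol2 BT with quantile normalisation or median centring. Cdh1, E-cadherin, the cadherin of all living epidermal layers, read 12.35 and 12.32 on the Ovol2 BT arrays, against 12.16 and 12.37 on the control arrays. Its difference was 0.07 (SE 0.11, 95% interval from -0.22 to 0.36), within the gap of 0.21 between the control arrays. Cdh3, P-cadherin of the basal layer and hair follicle, read 10.74 and 11.21 in Ovol2 BT and 10.83 and 11.004 in control, and its Ovol2 BT values lay on either side of the controls (0.06, SE 0.21). Cdh2, N-cadherin, typical of mesenchymal and neural cells, read 9.46 and 9.27 in Ovol2 BT and 9.36 and 9.18 in control (0.09, 95% interval from -0.39 to 0.58). Cdh11, a cadherin of dermal fibroblasts, read 12.53 and 11.87 in Ovol2 BT and 12.35 and 12.42 in control, with replicate 2 of Ovol2 BT below the rest. Its difference was -0.19 and turned to 0.14 without Ovol2 BT replicate 2. Epcam, an adhesion molecule of simple and progenitor epithelia, read 9.97 and 9.82 in Ovol2 BT and 9.93 and 10.07 in control (-0.11, SE 0.19).

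**Figure D3:**
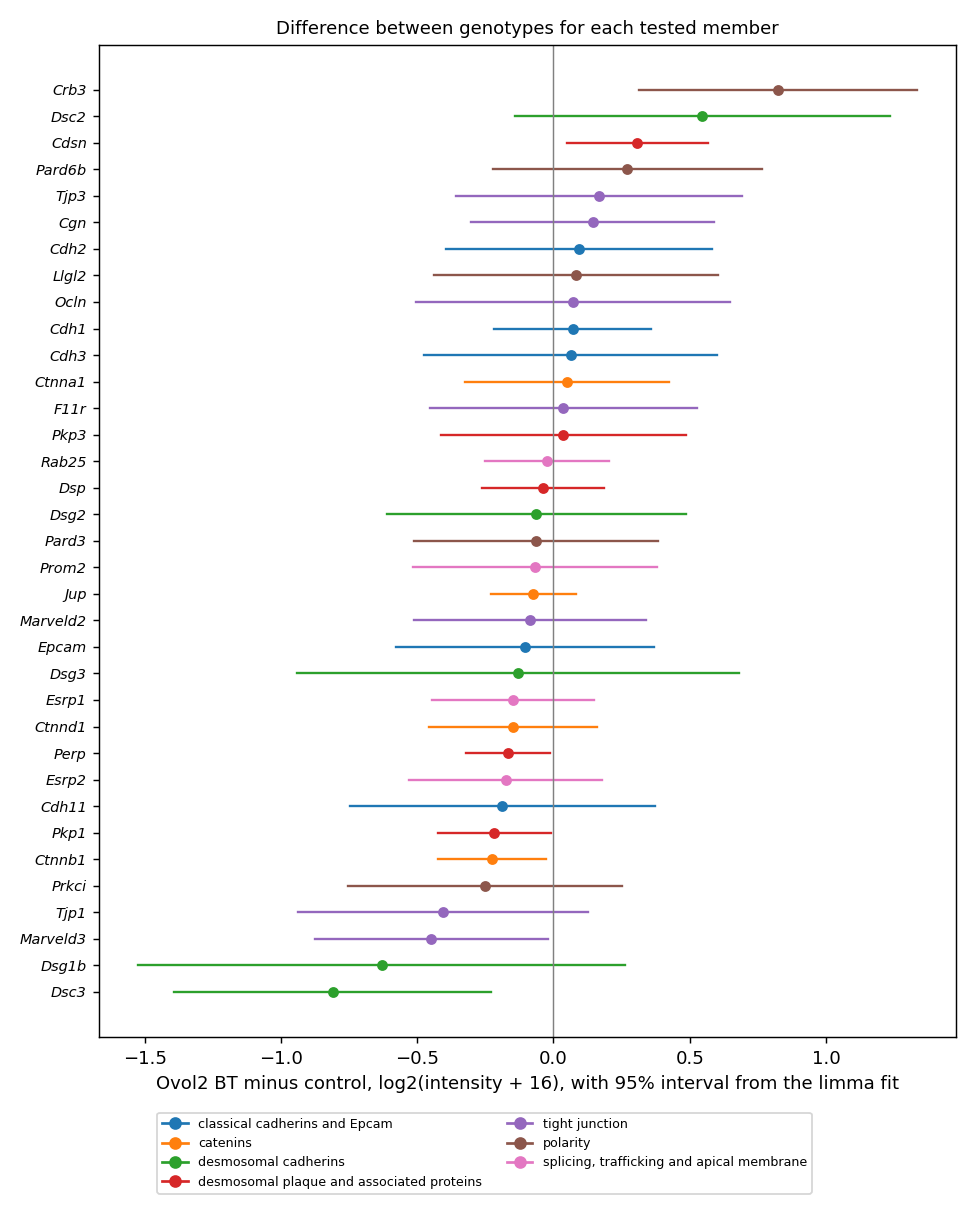
Difference between genotypes for the 35 tested members (horizontal axis, Ovol2 BT minus control in log2 units), sorted by size and coloured by role; lines are 95% intervals from the limma fit, not adjusted for the number of genes. Crb3 (0.82) and Dsc3 (-0.81) form the ends, and the widest intervals belong to the desmosomal cadherins Dsg1b and Dsg3.

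Tight junction members went both ways. Marveld3, a tight junction membrane protein of the occludin family, read 7.64 and 7.75 on the Ovol2 BT arrays, against 8.003 and 8.28 on the control arrays, with no overlap. Its difference was -0.45 (SE 0.17, unadjusted p = 0.0426, limma adjusted p = 0.906). Tjp1, the ZO-1 scaffold, read 11.29 and 10.78 in Ovol2 BT, against 11.38 and 11.50 in control. Both Ovol2 BT arrays lay below the controls, replicate 2 by the more, so that the difference of -0.41 (SE 0.21, limma adjusted p = 0.906) was -0.15 without it. Cgn, cingulin, a cytoplasmic linker of tight junctions to the cytoskeleton, read 9.20 and 9.21 in Ovol2 BT, against 9.01 and 9.11 in control, above without overlap (0.14, SE 0.18). The ZO-3 scaffold Tjp3 read 9.73 and 10.08 in Ovol2 BT and 9.75 and 9.72 in control, with replicate 2 of Ovol2 BT alone above the rest, although both lay above the controls with quantile normalisation, median centring or cyclic loess. Ocln, occludin, differed by 0.07 (SE 0.23), F11r, the adhesion molecule JAM-A, by 0.04 (SE 0.20) and Marveld2, tricellulin, by -0.09 (SE 0.17), each with overlap.

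The remaining 4 members had small negative differences, although that of Rab25 was positive (0.040) with median centring. Esrp1 and Esrp2 direct epithelial splicing of transcripts such as Fgfr2 and Cd44. Esrp1 read 11.96 and 11.85 on the Ovol2 BT arrays, against 11.997 and 12.10 on the control arrays (-0.15, SE 0.12). Esrp2 read 11.38 and 11.42 in Ovol2 BT, against 11.49 and 11.67 in control (-0.17, SE 0.14). Neither gene overlapped between groups, although Esrp2 overlapped with median centring, and the limma adjusted p was 0.906 for each. Rab25, an epithelial small GTPase of recycling endosomes, read 12.81 and 12.99 in Ovol2 BT and 12.92 and 12.92 in control, and Prom2, a membrane protein of epithelial protrusions, read 10.49 and 10.67 in Ovol2 BT and 10.57 and 10.73 in control. For Rab25 the difference was -0.02 (95% interval from -0.25 to 0.20), for Prom2 -0.07 (95% interval from -0.51 to 0.38).

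**Figure D4:**
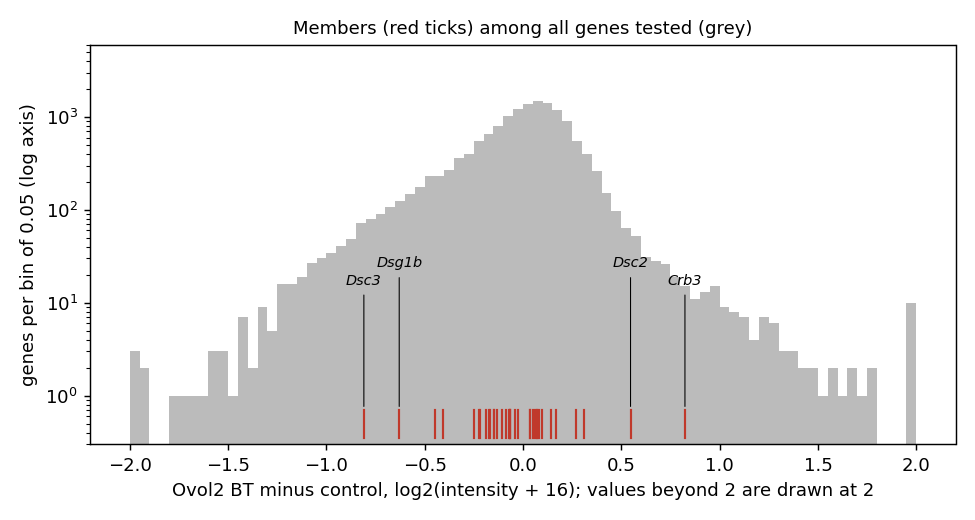
Histogram of the differences of all 14953 genes tested (grey, logarithmic vertical axis of genes per bin of 0.05) with each of the 35 members as a red tick, on Ovol2 BT minus control in log2 units; values beyond 2 are drawn at 2. Most ticks lie within 0.5 of 0, and the labelled Crb3, Dsc2, Dsg1b and Dsc3 lie beyond.

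Other genes of the same structures were listed by role and not by how they moved. Of 54 further adherens junction, desmosome, tight junction and polarity genes 51 were tested and 0 were called in limma. Their median was -0.02, with 24 positive and 27 negative differences. At an unadjusted p under 0.05 in limma there were 3 (5.88%, against 4.23% of all genes), 1 higher and 2 lower. The groups did not overlap for 10 higher (19.6%, against 20.1% of all genes) and 6 lower (11.8%, against 14.1% of all genes). The members had 14.3% and 31.4%, and the difference between the lists was not tested. The median was 0.16 over 15 nectin and other adherens junction genes, -0.15 over 4 desmosome genes, 0.0037 over 12 tight junction genes and -0.07 over 20 polarity genes. Mpp5, the Pals1 scaffold that binds Crb3, had the largest difference and read 8.71 and 6.87 on the Ovol2 BT arrays, against 8.51 and 9.03 on the control arrays. It lay far below on Ovol2 BT replicate 2 alone (-0.98, SE 0.60, limma adjusted p = 0.906). Ctnnd2, a delta-catenin best known from neurons, read 8.89 and 8.82 in Ovol2 BT, against 8.19 and 8.18 in control, without overlap (0.67, SE 0.16, limma adjusted p = 0.765).

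Regulators of these genes showed 0 calls in limma too. Over 9 epithelial regulators the median was -0.14, with 1 (11.1%, against 4.23% of all genes) at an unadjusted p under 0.05. Over 6 mesenchymal regulators of the Zeb, Snail and Twist families the median was 0.01. Their differences ran from -0.35 to 0.20, with none at an unadjusted p under 0.05. Grhl2, a grainyhead factor that in mouse activates Cdh1 and other junction genes, read 9.07 and 9.07 on the Ovol2 BT arrays, against 9.66 and 9.86 on the control arrays. The groups did not overlap, and the difference was -0.68 (SE 0.19, unadjusted p = 0.0131, limma adjusted p = 0.853). Beside it Cdh1 differed by 0.07.

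**Figure D5:**
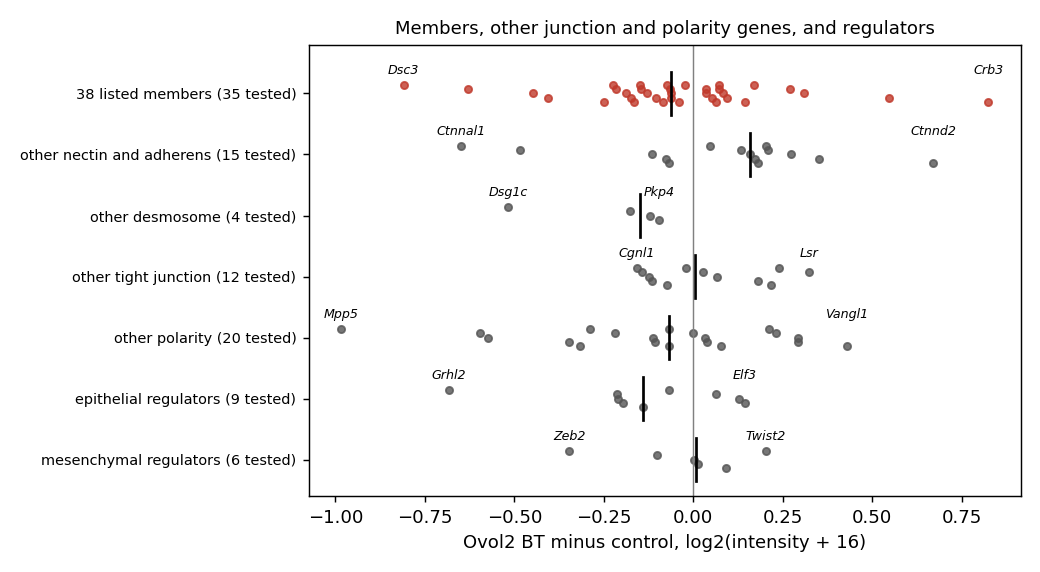
Differences between genotypes (Ovol2 BT minus control, log2 units, horizontal axis) for the tested members (red) and for 6 lists of other genes (grey), 1 point per gene, with a black bar at each median; vertical scatter within a list has no meaning. The lowest and highest gene of each list are labelled, with Mpp5 at -0.98 and Crb3 at 0.82 as the ends.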

How the data were processed

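The deposited table holds linear intensity, 1 value a probe set and array, which the authors summarised with PLIER 2.0 in Affymetrix Expression Console 1.1.1, per the submitters' processing notes. How arrays were scaled to each other, and the build behind the probe sets, is not given in the sources used here. Total RNA was taken up in Trizol, purified on columns and amplified from random hexamers, per the labels' protocols.

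Of 35557 probe sets, 21789 carried 1 gene symbol and were used, 1621 carried several and 12147 had no listed gene. Each value became log2(intensity + 16), which shrinks the folds of dim genes. The brightest probe set stood for its gene, and genes whose mean level lay below the 25th percentile (7.32) were left out. The remaining 14953 genes were tested two-sided in limma 3.58.1 under R 4.3.3 (lmFit, then eBayes with an intensity trend; 2 residual and 3.45 prior degrees of freedom), with Benjamini-Hochberg adjustment over all of them. The fit was tested on simulated data with independent normal noise and the spreads of genes shuffled. These held no intensity trend and no outlying array, so they could not test the fit on either. For single values, exact permutation over 2 and 2 arrays gives at best p = 0.333. The labels call replicates biological and mention littermates, without saying which arrays share a litter, so p-values measure the spread between these pooled arrays. The number of arrays limits the precision.

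The members and gene lists were chosen with earlier results of these data known. Named were all 38 members, Ovol2 and Ovol1 as checks, and the 3 other listed genes with the largest absolute difference; Eif2s3y and the keratinocyte markers were chosen after their values were seen. Alternatives were 3 normalisations (quantile, median centring, cyclic loess), offsets of 1 and 64, a 50th percentile filter or none, averaging a gene's probe sets, a prior without trend, a robust prior, array weights, a replicate block, and each array left out once. RefSeq (GRCm38.p6) gave the promoter sequences.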

Additional observations from a re-analysis of the deposited data

How the results depend on the processing

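The number of genes called, 4 over all genes tested, was 7 with median centring, 0 with cyclic loess (686 at an unadjusted p under 0.05), 0 without an intensity trend (601 at an unadjusted p under 0.05) 9 under the replicate block, and 4 to 2453 when 1 array was left out, the highest without Ovol2 BT replicate 1 and 107 without Ovol2 BT replicate 2. A fit with a lone array in a group assumes that it varies like the other group. Averaging a gene's probe sets could not change the level of any member, since each measured member had 1. The number of members called was 0 under each of the other 12 planned settings (the 50th percentile filter tested 30 members) and ranged from 0 to 5 when 1 array was left out. Their median of -0.06 ranged from -0.14 to 0.0041 when 1 array was left out. With median centring it was -7.1e-05, where that of all genes was 0.089. The median of other junction and polarity genes, -0.02, was 0.030 with quantile normalisation, 0.043 with median centring and from -0.056 to 0.030 when 1 array was left out. With median centring Dsp (0.024) and Rab25 (0.040) turned positive. When 1 array was left out the difference changed sign for Cdh1 (-0.032 to 0.17), Cdh3 (-0.17 to 0.30), Cdh11 (-0.52 to 0.14), Ctnna1 (-0.025 to 0.13), Dsg2 (-0.30 to 0.17), Dsg3 (-0.53 to 0.27), Dsp (-0.14 to 0.063), Pkp3 (-0.11 to 0.18), Ocln (-0.14 to 0.29), Tjp3 (-0.0099 to 0.35), F11r (-0.16 to 0.24), Marveld2 (-0.19 to 0.016), Llgl2 (-0.094 to 0.26), Pard3 (-0.17 to 0.040), Rab25 (-0.11 to 0.066), Prom2 (-0.15 to 0.023) and Ovol1 (-0.11 to 0.24). The cause was not tested. Crb3 kept a positive difference (0.63 to 1.01) and Dsc3 a negative one (-1.14 to -0.48) when any 1 array was left out.

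Same-numbered arrays share a number and, as given above, the presence or absence of Y-linked signal, but the labels tie them by nothing else. Their deviations from the group means had r = -0.17 across 14953 genes, which are not independent replicates. With the replicate block 1 member lay higher and 1 lower at an unadjusted p under 0.05 (5.71%, against 3.87% of all genes), and 0 were called. A crossed pairing, chosen after seeing the data, called 5 genes and 0 members, with 8 members (22.9%, against 6.71% of all genes) at an unadjusted p under 0.05. Levels close to the filter, such as those of Pkp2, Marveld3 and Dsc2, are the least certain, since the offset and background weigh most there, and 2 arrays a group leave differences under about 0.5 within the intervals of most members.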
